A study of Arabidopsis thaliana with 30 samples.

Results

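The autophagy genes described here are the 9 Arabidopsis genes of the ATG8 family and ATG3, taken by their symbols in the probe gene table, which gives APG8A (ATG8A, locus AT4G21980), ATG8B (AT4G04620), ATG8C (AT1G62040), ATG8D (AT2G05630), ATG8E (AT2G45170), ATG8F (AT4G16520), ATG8G (AT3G60640), ATG8H (AT3G06420), APG8H (AT3G15580, for which the RefSeq gene table lists the synonym ATG8I) and ATG3 (AT5G61500). Each of the 10 genes had 1 probe set among the 22746 tested, so 10 of 22746 probe sets are described. RNA came from whole Col-0 seedlings, 7 days old, that carried the 35S:His6FLAG-RPL18B transgene in every group, controls included. That transgene is present as a single copy and makes a tagged ribosomal protein from the 35S promoter, and wild-type seedlings without it were not analysed here. The 5 conditions were 2 h of air, 2 h of hypoxia (low oxygen), 9 h of air, 9 h of hypoxia, and 9 h of hypoxia followed by 1 h of recovery in air. For each condition a total and a polysomal RNA pool, the latter holding mRNA on ribosomes, was measured on Affymetrix arrays in 3 independent replicate experiments, which makes 10 groups and 30 arrays. Treatments started as the daily light ended and ran in dim light, so the 9 h samples lie later in the night than the 2 h samples. Recovery samples lie 1 h later again than the 9 h samples, and no air group was taken at that hour.

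Autophagy carries cytoplasm and organelles to the vacuole for breakdown. ATG8 is a small ubiquitin-like protein that is activated by ATG7, passed to the conjugating enzyme ATG3 and joined by it to the membrane lipid phosphatidylethanolamine. Lipid-bound ATG8 coats the growing autophagosome and binds the receptors that bring in cargo. Plants have many ATG8 genes where yeast has a single one, and starvation for carbon or nitrogen and lack of oxygen are known inducers of the pathway in Arabidopsis.

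Signals are log2 values, so that a difference of 1 is a doubling. Array means lay close together in total RNA (5.754 to 5.805) and were lower in polysomal RNA (4.33 to 5.37), by 0.415 in air at 9 h and by 1.42 after 9 h of hypoxia. Total RNA is therefore given as deposited, and polysomal RNA as the signal minus its array's mean (centred), which makes a polysomal change relative to the average probe set. Changes are differences of group means ± the standard error from limma (3 arrays a group), and a gene is said to have risen or fallen where the Benjamini-Hochberg adjusted p over all 22746 probe sets was under 0.05. Of the tissue markers, the root genes PYK10, EXPA7 and EXPA18 and the shoot gene LHCB4.2 could be named and were measured (3 of 6 and 1 of 6 listed). All 4 were lower in total RNA after 9 h of hypoxia than after 9 h of air, by 1.04, 1.45, 2.67 and 2.05. For LHCB4.2 the mean in air rose from 11.27 at 2 h to 12.98 at 9 h, while hypoxia gave 10.93 at both times. The part of these markers in the results was not tested. In whole seedlings, fewer cells of a type and less RNA per cell cannot be told apart. Probe sequences were not used here, so signal shared between ATG8 family members was not checked, and levels are not compared between genes.

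After 2 h of hypoxia, total RNA of 4 ATG8 genes and of ATG3 rose against 2 h of air, and no member fell. Among all probe sets 8.20% rose and 12.5% fell. The median change of the 10 members was 0.44, against -0.01 over all probe sets. ATG8B gave 6.85, 6.26 and 6.32 in air and 7.14, 7.19 and 7.06 in hypoxia. All hypoxia arrays lay above all air arrays, and the air array of replicate 1 stood above the other air arrays. The change was 0.65 ± 0.13 (adjusted p = 0.000787). ATG8E gave 8.50, 8.68 and 8.12 in air against 8.76, 9.22 and 9.23, a rise of 0.63 ± 0.17 (adjusted p = 0.00769) in which the groups came close but did not overlap. ATG8D rose by 0.50 ± 0.12 (adjusted p = 0.00355), and ATG8F by 0.43 ± 0.10 (adjusted p = 0.00283). For ATG3, the enzyme that hands ATG8 to the lipid, the arrays read 8.01, 7.85 and 7.96 in air and 8.28, 8.38 and 8.50 in hypoxia. These groups did not overlap, and the rise was 0.44 ± 0.13 (adjusted p = 0.0168).

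The other 5 members did not pass at 2 h. ATG8H had a change of 0.45 ± 0.21 (adjusted p = 0.149), which is close to that of ATG3, but its replicate 1 gave 7.28 in air and 7.34 in hypoxia. For ATG8C, ATG8G, APG8A and APG8H the changes were 0.22, 0.19, 0.12 and 0.089, with 95% confidence intervals of -0.033 to 0.48, -0.074 to 0.46, -0.12 to 0.36 and -0.12 to 0.29. All 5 calls held without replicate 1 of every group, and ATG8E alone held without replicate 2. Without replicate 3 none of the 5 held (adjusted p of ATG8B 0.0673, of ATG3 0.152), and none passed on values scaled to the hybridisation controls.

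After 9 h of hypoxia, 6 members stood higher than after 9 h of air and none lower. In this comparison 21.3% of all probe sets rose and 24.5% fell, and the median change was 0.52 for the members and 0.033 for all. ATG8D changed most among the members. Its arrays read 6.65, 7.08 and 6.91 in air and 7.80, 8.18 and 8.24 in hypoxia. The groups were well apart, with a rise of 1.19 ± 0.12 or 2.29-fold (adjusted p = 8.06e-09). APG8H, one of the members that had not passed at 2 h, gave 9.55, 9.63 and 9.58 in air and 10.29, 10.53 and 10.44 in hypoxia. Its rise was 0.83 ± 0.10 (adjusted p = 1.1e-07), and all hypoxia arrays were above all air arrays.

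ATG8F read 10.65, 10.73 and 10.52 after 9 h of air and 11.22, 11.31 and 11.33 after 9 h of hypoxia, a rise of 0.65 ± 0.10 (adjusted p = 7.49e-06) with no overlap. ATG3 read 7.77, 7.99 and 8.01 against 8.35, 8.42 and 8.89. Replicate 3 in hypoxia was the highest, and the rise was 0.63 ± 0.13 (adjusted p = 0.000266). ATG8H rose by 0.73 ± 0.21 (adjusted p = 0.00531), but without air replicate 1, at 6.89 the lowest of its arrays, the change was 0.49 (adjusted p = 0.0656). ATG8C rose by 0.35 ± 0.12 (adjusted p = 0.0217), and passed in 3 of the 9 fits that left out a library or a replicate. ATG8E differed by 0.40 ± 0.17 (adjusted p = 0.0541) and did not pass. Its highest air array and its lowest hypoxia array were nearly equal (9.045 and 9.047). No change was detected for APG8A (0.0014, 95% confidence interval -0.24 to 0.24), ATG8B (0.065, -0.21 to 0.34) or ATG8G (0.13, -0.14 to 0.40). Scaled to the hybridisation controls, ATG8D alone passed (0.92, adjusted p = 0.0037).

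**Figure D1:**
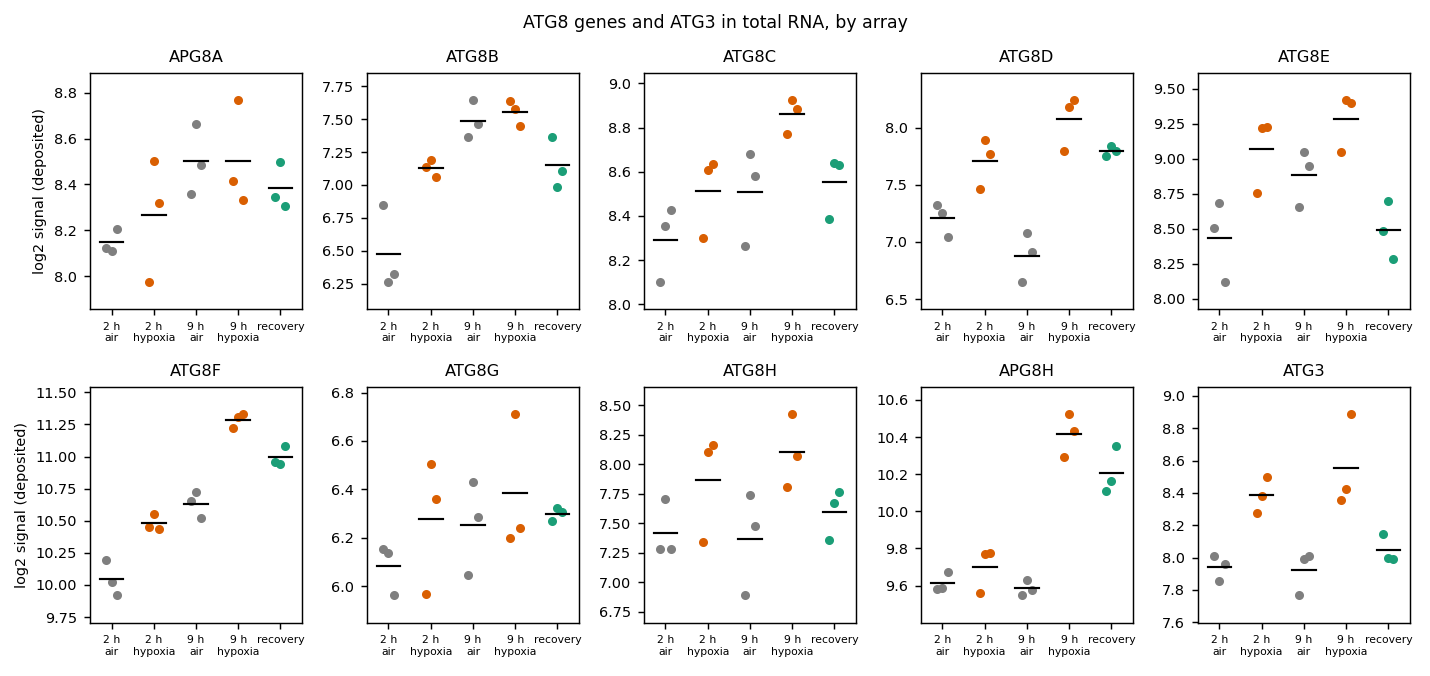
Deposited log2 signal of the 10 genes in total RNA, 1 panel a gene, with a point for each of the 3 replicate arrays in each of the 5 conditions and the group mean. ATG8D, ATG8F and APG8H are highest after 9 h of hypoxia and lie above 9 h of air in recovery. In recovery ATG3 lies near its level after 9 h of air. ATG8E lies below it (mean 8.49 against 8.88), a difference that did not pass.

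The controls themselves moved between 2 h and 9 h of air for a few members. ATG8B rose by 1.01 ± 0.13 (adjusted p = 6.9e-06), from 6.85, 6.26 and 6.32 to 7.37, 7.64 and 7.46. ATG8F rose by 0.59 ± 0.10 (adjusted p = 0.000292), from 10.19, 10.02 and 9.92 to 10.65, 10.73 and 10.52. Both sets of arrays were free of overlap, and 2.81% of all probe sets rose and 4.24% fell in the same comparison. APG8A changed by 0.35 ± 0.12 (adjusted p = 0.0663) and passed with the replicate block (adjusted p = 0.0311). Hours of treatment and hours of the night cannot be told apart.

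From 2 h to 9 h within hypoxia, 5 members rose and none fell, where 13.8% and 17.7% of all probe sets did. These were ATG8F (0.81 ± 0.10, adjusted p = 1.02e-06), APG8H (0.72 ± 0.10, adjusted p = 3.31e-06), ATG8B (0.42 ± 0.13), ATG8D (0.36 ± 0.12) and ATG8C (0.34 ± 0.12). The last 3 had adjusted p of 0.0175, 0.0238 and 0.0344 and did not hold without replicate 2 or replicate 3. With only the groups compared in the fit 3 members passed.

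The hypoxia effect at 9 h minus that at 2 h was tested directly, and passed for 3 members, with 8.12% of all probe sets higher and 10.1% lower. It was 0.74 ± 0.14 for APG8H (adjusted p = 0.000407) and 0.69 ± 0.17 for ATG8D (adjusted p = 0.0052), so both had the larger effect at 9 h. For ATG8D the mean in air was lower at 9 h (6.88) than at 2 h (7.21), and in hypoxia it was higher (8.07 against 7.71). The ATG8D difference did not pass without replicate 3 (0.74, adjusted p = 0.0743). ATG8B went the other way, with -0.59 ± 0.19 (adjusted p = 0.0313). Its hypoxia arrays at 9 h (7.64, 7.58 and 7.45) overlapped those of air, which had themselves risen. The ATG8B difference held in 7 of the 15 fits that left out a library or a replicate.

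During 1 h of recovery, total RNA of 4 members fell from its level at 9 h of hypoxia and none rose, where 12.5% of all probe sets rose and 9.65% fell. ATG8E fell from 9.05, 9.42 and 9.40 to 8.49, 8.70 and 8.29, with no overlap (-0.80 ± 0.17, adjusted p = 0.000983). ATG3 went from 8.35, 8.42 and 8.89 to 8.14, 8.0 and 7.99, also with no overlap (-0.51 ± 0.13, adjusted p = 0.00571). Without hypoxia replicate 3 the ATG3 change was -0.35 (adjusted p = 0.0735). Without replicate 3 of every group, neither ATG3 (-0.32, adjusted p = 0.229) nor ATG8E (-0.64, adjusted p = 0.056) passed. ATG8B (-0.40 ± 0.13, adjusted p = 0.032) and ATG8F (-0.29 ± 0.10, adjusted p = 0.0415) passed narrowly, in 3 and 1 of 9 leave-out fits. With array medians subtracted, 8 members fell.

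Against 9 h of air, 3 members were higher in recovery and 1 was lower, while 18.2% of all probe sets were higher and 20.6% lower. Recovery lies 1 h later in the night than 9 h of air, so treatment and that hour cannot be told apart. ATG8D read 7.75, 7.84 and 7.80, above every air array, with a difference of 0.92 ± 0.12 (adjusted p = 8.1e-07). APG8H read 10.11, 10.16 and 10.35, again above every air array (0.62 ± 0.10, adjusted p = 1.09e-05). ATG8F was higher by 0.36 ± 0.10 (adjusted p = 0.006). ATG8B was lower, at -0.34 ± 0.13 (adjusted p = 0.0492), and held in 3 of 9 leave-out fits. For ATG3 the difference was 0.12 (95% confidence interval -0.15 to 0.39), and for ATG8E -0.39 (-0.74 to -0.046), which did not pass (adjusted p = 0.0689). Both recovery comparisons share the recovery arrays, and none of their members passed on values scaled to the hybridisation controls.

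Set in order over the 5 conditions, each member had its highest mean total RNA after 9 h of hypoxia, and the members differed in where it was lowest. For APG8A, ATG8B, ATG8E and ATG8G that mean did not pass against 9 h of air, and for APG8A both were nearly equal (8.504 and 8.503). The share of all probe sets that were highest in that group was not counted. The mean level ± SD (n = 3) of ATG8D ran from 6.88 ± 0.22 after 9 h of air to 7.21 ± 0.15 after 2 h of air, 7.71 ± 0.22 after 2 h of hypoxia, 7.80 ± 0.044 in recovery and 8.07 ± 0.24 after 9 h of hypoxia. Neither the air groups nor the upper pair of groups passed the test against each other. The order of APG8H was 9.58 ± 0.042 after 9 h of air, 9.61 ± 0.053 after 2 h of air, 9.70 ± 0.12 after 2 h of hypoxia, 10.21 ± 0.13 in recovery and 10.42 ± 0.12 after 9 h of hypoxia. Its 3 lowest groups overlapped, and recovery did not pass against 9 h of hypoxia. ATG8E was lowest after 2 h of air (8.44 ± 0.29) and in recovery (8.49 ± 0.21), groups that overlapped, and highest after 9 h of hypoxia (9.29 ± 0.21). ATG3 lay between 7.92 ± 0.14 after 9 h of air and 8.56 ± 0.29 after 9 h of hypoxia, with 2 h of air and recovery at 7.94 ± 0.082 and 8.04 ± 0.085 next to the lowest.

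APG8A and ATG8G moved least in total RNA. Group means of APG8A ran from 8.15 ± 0.052 after 2 h of air to 8.50 ± 0.23 after 9 h of hypoxia, and those of ATG8G from 6.08 ± 0.11 to 6.38 ± 0.29 in the same groups. On the deposited values, in the fit of all groups without a block, neither gene passed in a total RNA comparison. In ATG8G the arrays after 9 h of hypoxia read 6.20, 6.71 and 6.24, where replicate 2 stood above the others, and they overlapped those of 9 h of air (6.04, 6.43 and 6.29).

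In air the ATG8 mRNAs stood higher in the polysomal than in the total pool, relative to each pool's mean. At 2 h, 9 members were higher and none lower, where 20.3% of all probe sets were higher and 19.4% lower, and the median difference was 1.02 for the members and 0.054 for all. ATG8D had 1.49 ± 0.12 (adjusted p = 7e-10) and ATG8G 1.39 ± 0.13 (adjusted p = 5.61e-09). The other ATG8 genes lay between 0.58 for APG8A and 1.25 for ATG8B, and ATG3 at 0.27 ± 0.13 did not pass (adjusted p = 0.105). At 9 h all 10 members passed (20.0% of all probe sets higher and 18.1% lower), from 0.38 ± 0.13 for ATG3 to 1.44 ± 0.13 for ATG8G. On the deposited scale 7 members at 2 h and 8 at 9 h were higher and none lower, and ATG3 at 9 h turned to -0.037.

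After 2 h of hypoxia, 4 members rose and 1 fell in polysomal RNA on centred values, where 15.7% of all probe sets rose and 17.6% fell. On the deposited scale, in which the whole hypoxia arrays lie lower, none rose and 7 fell. ATG3 had centred values of 2.51, 2.43 and 2.34 in air and 3.50, 3.28 and 3.71 in hypoxia. The hypoxia arrays lay well above the air arrays, and the rise was 1.07 ± 0.13 or 2.1-fold (adjusted p = 5.54e-07). On the deposited scale it was 0.24 (adjusted p = 0.0885). ATG8E rose by 0.72 ± 0.17 (adjusted p = 0.00156), ATG8F by 0.40 ± 0.10 (adjusted p = 0.00365) and ATG8G by 0.36 ± 0.13 (adjusted p = 0.0343), and all 3 turned negative as deposited (-0.11, -0.43 and -0.47). The ATG8G call held in 3 of 9 leave-out fits. ATG8C went down on both scales. Its centred values were 3.68, 3.53 and 3.44 in air and 3.02, 3.25 and 2.93 in hypoxia, without overlap, a change of -0.48 ± 0.12 (adjusted p = 0.00276), and -1.31 as deposited.

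After 9 h of hypoxia, 7 members rose and 1 fell on centred polysomal values (22.6% and 25.3% of all probe sets), and 2 rose and 6 fell on deposited values. ATG3 read 2.45, 2.55 and 2.58 in air and 3.87, 4.10 and 4.09 in hypoxia, centred. Its rise of 1.49 ± 0.13 or 2.82-fold (adjusted p = 5.65e-10) was more than the whole spread of either group, and as deposited it was 0.48 (adjusted p = 0.00152). ATG8H read 2.28, 2.42 and 2.55 in air and 3.56, 3.86 and 3.93 in hypoxia, and rose by 1.37 ± 0.21 (adjusted p = 4.53e-06; 0.35 with adjusted p = 0.112 as deposited). ATG8D read 2.43, 2.52 and 2.61 in air and 3.83, 3.91 and 3.76 in hypoxia, with a rise of 1.31 ± 0.12 (adjusted p = 1.5e-09; 0.30 with adjusted p = 0.0247 as deposited). In all 3 genes the groups were apart.

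Smaller centred rises were seen at 9 h for ATG8E (0.74 ± 0.17), APG8H (0.73 ± 0.099), ATG8F (0.68 ± 0.10) and ATG8G (0.35 ± 0.13), with adjusted p of 0.000747, 8.03e-07, 4.36e-06 and 0.03. All 4 were negative on the deposited scale, and the ATG8G call held in 3 of 9 leave-out fits (adjusted p = 0.173 without replicate 3). ATG8C fell by 0.52 ± 0.12 (adjusted p = 0.000902), from 3.85, 3.58 and 3.60 to 3.14, 3.26 and 3.07 with no overlap. For APG8A and ATG8B the centred changes were 0.17 (-0.064 to 0.41) and -0.11 (-0.39 to 0.16), with 95% confidence intervals in parentheses. Scaled to the hybridisation controls, ATG3 (1.17), ATG8H (1.05), ATG8D (0.99) and ATG8C (-0.84) passed.

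**Figure D2:**
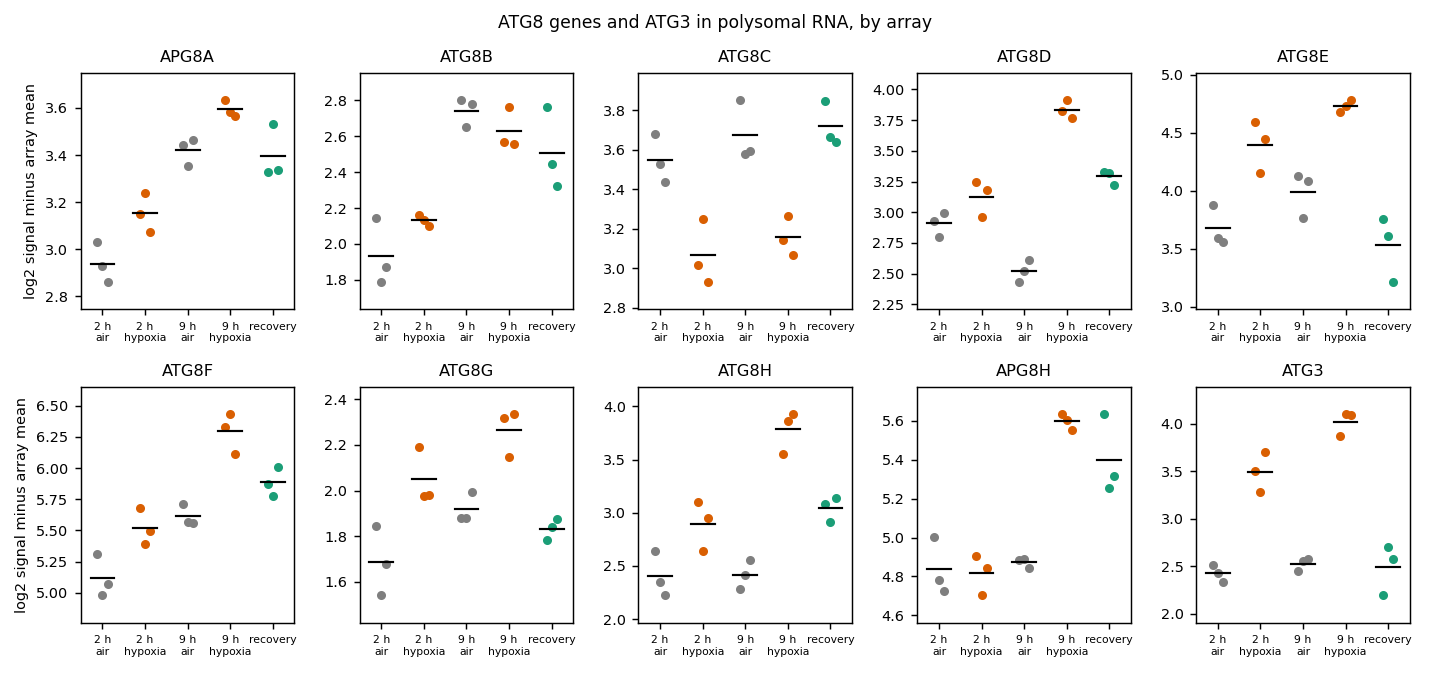
Centred log2 signal (deposited signal minus the array mean) of the 10 genes in polysomal RNA, with a point for each of the 3 replicate arrays in each of the 5 conditions and the group mean. ATG3 is higher in both hypoxia groups than in air or recovery, and ATG8C is lower in both; bars mark the means.

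Whether a polysomal change went beyond the change in total RNA was tested as the difference of both changes on centred values, and ATG3 and ATG8C passed in opposite directions. At 2 h, 1 member was higher and 1 lower, where 7.38% of all probe sets were higher and 7.62% lower. The difference was 0.61 ± 0.19 for ATG3 (adjusted p = 0.0261) and -0.71 ± 0.17 for ATG8C (adjusted p = 0.00534). At 9 h it was 0.85 ± 0.19 for ATG3 (adjusted p = 0.00141) and -0.88 ± 0.17 for ATG8C (adjusted p = 0.000418), against 11.5% and 12.7% of all probe sets. On the deposited scale the ATG3 differences turned to -0.20 and -0.16, and those of ATG8C were -1.53 and -1.88. On that scale every ATG8 gene passed as lower at 2 h. At 9 h every ATG8 gene except ATG8H (adjusted p = 0.227) did so.

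In levels, the polysomal minus total difference of ATG8C on centred values (± standard error from the 3 arrays of each pool) was 1.04 ± 0.12 after 2 h of air and 0.33 ± 0.15 after 2 h of hypoxia. It was 0.94 ± 0.15 after 9 h of air, 0.059 ± 0.074 after 9 h of hypoxia and 0.94 ± 0.11 in recovery. For ATG3 the same series ran 0.27 ± 0.066, 0.89 ± 0.14, 0.38 ± 0.081, 1.22 ± 0.19 and 0.22 ± 0.16. ATG8C was low and ATG3 high in both hypoxia groups, and in recovery each lay close to its value in air. On centred values the other 8 members did not pass at either time. Among these ATG8H had the largest difference at 9 h, 0.62 ± 0.30 (adjusted p = 0.142). The 2 h difference of ATG3 held in 8 of 15 leave-out fits, and its 9 h difference in 14 (adjusted p = 0.0617 without replicate 2). The 2 h difference of ATG8C was lost without replicate 3 (adjusted p = 0.124), and none of the 4 differences passed on values scaled to the hybridisation controls.

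**Figure D3:**
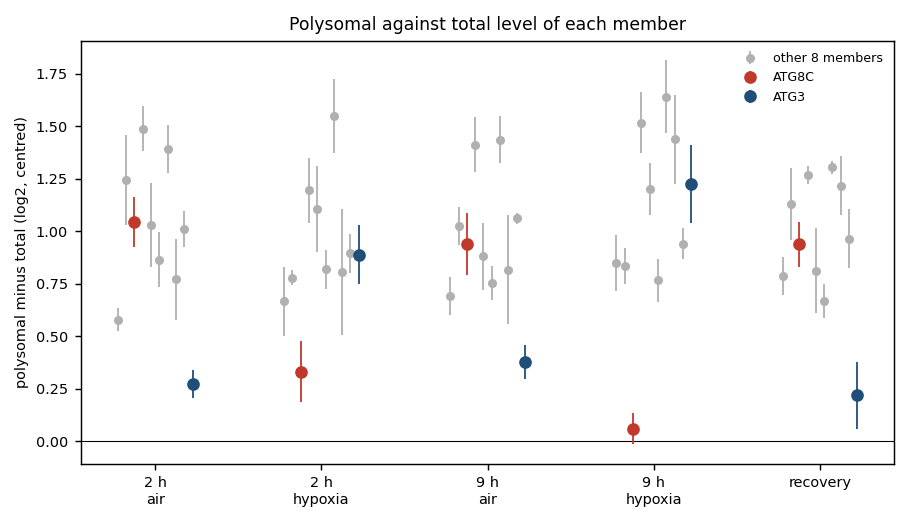
Polysomal minus total log2 level on centred values for the 10 genes in the 5 conditions, as points with the standard error of the difference from the 3 arrays of each pool. ATG8C is lower and ATG3 higher in both hypoxia groups than in air or recovery, and on the deposited scale the direction of ATG3 turns.

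During recovery ATG3 and most ATG8 genes moved opposite to their hypoxia change in polysomal RNA. From 9 h of hypoxia to recovery 6 members fell and 1 rose on centred values (18.1% of all probe sets fell and 18.9% rose), and on deposited values 7 rose and 1 fell. ATG3 went from 3.87, 4.10 and 4.09 to 2.19, 2.70 and 2.58, well apart, with a change of -1.53 ± 0.13 (adjusted p = 9.73e-10; -0.68 as deposited). ATG8E changed by -1.20 ± 0.17 (adjusted p = 2.52e-06; -0.35 as deposited). ATG8D, ATG8F, ATG8G and ATG8H changed by -0.54, -0.41, -0.43 and -0.74, and all 4 turned positive as deposited. On centred values ATG8F did not pass without replicate 2 (adjusted p = 0.146), nor ATG8G without replicate 3 (adjusted p = 0.121). ATG8H did not pass without replicate 2 (adjusted p = 0.0655) or without replicate 3 (adjusted p = 0.0901). ATG8C rose from 3.14, 3.26 and 3.07 to 3.85, 3.67 and 3.64, with no overlap (0.56 ± 0.12, adjusted p = 0.000564). Relative to the change in total RNA, ATG8C was higher by 0.88 ± 0.17 (adjusted p = 0.000455) and ATG3 differed by -1.01 ± 0.19 (adjusted p = 0.000262), where 11.2% of all probe sets were higher and 10.8% lower. The ATG3 difference was -0.16 as deposited.

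Against 9 h of air, the recovering seedlings had 4 members higher and 1 lower in polysomal RNA on centred values (17.1% and 19.9% of all probe sets). Deposited values gave 2 and 2. Here too, recovery lay 1 h later in the night than the air samples. ATG8D read 3.33, 3.32 and 3.22 in recovery, above all air arrays (0.77 ± 0.12, adjusted p = 1.29e-05). APG8H was higher by 0.53 ± 0.099 (adjusted p = 0.000106), ATG8H by 0.63 ± 0.21 (adjusted p = 0.0193) and ATG8F by 0.28 ± 0.10 (adjusted p = 0.0391). ATG8E was lower, with -0.46 ± 0.17 (adjusted p = 0.0344). Calls for ATG8H, ATG8F and ATG8E held in 5, 2 and 4 of 9 leave-out fits. No member's polysomal change passed against its total change in limma (1.13% of all probe sets higher and 0.317% lower), where 0 members had an unadjusted p under 0.05.

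**Figure D4:**
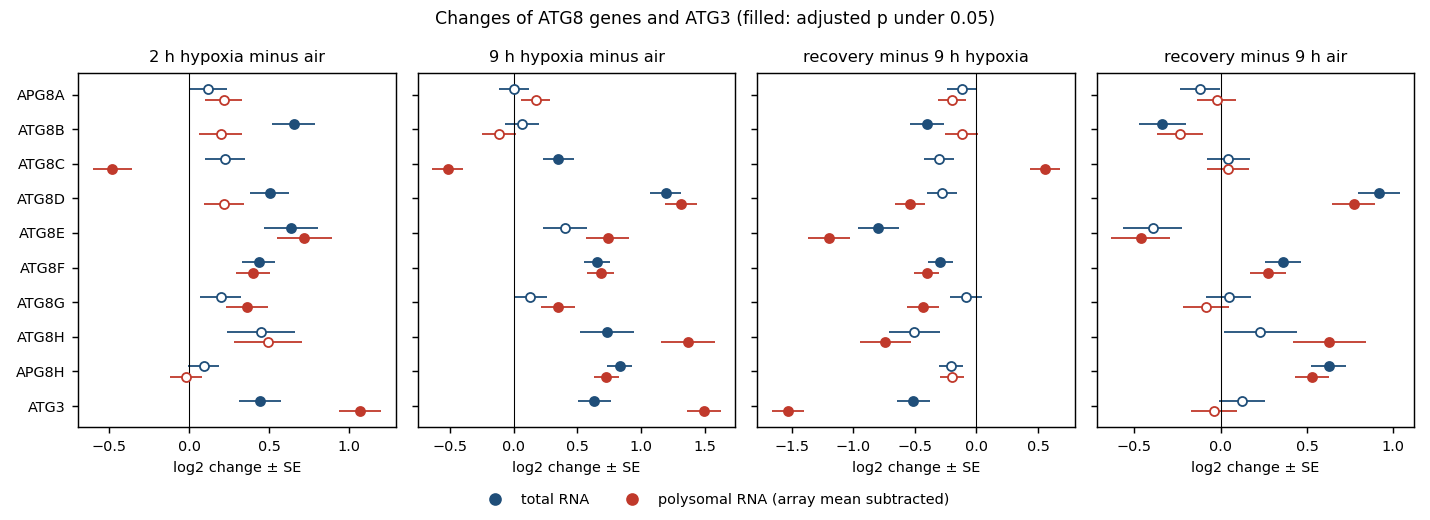
Log2 change of the 10 genes in total RNA (deposited) and in polysomal RNA (centred) for hypoxia against air at 2 h and 9 h and for recovery, with the standard error of the fit. ATG3 has the largest centred polysomal rises of the 10. On centred values ATG8C is the gene whose total and polysomal changes lie on opposite sides of 0 at both times. With polysomal RNA as deposited, APG8A, ATG8B, ATG8E, ATG8F, ATG8G and APG8H do so too.

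The members did not share a single pattern over the 10 groups. On centred group means Pearson's r was highest between APG8A and ATG8B (0.963), ATG8D and ATG8H (0.958) and APG8H and ATG8D (0.952). It was lowest between ATG3 and ATG8C (0.17). All points share the same arrays and the same contrast between pools, so these values only describe the profiles. Of 13503 other named probe sets compared, the one most like the mean profile of the 9 ATG8 genes was that of AT3G08810 (r = 0.983 over 10 group means), followed by AT5G47710 (0.983), AT1G53560 (0.982), AT1G16210 (0.981) and AT2G34450 (0.98).

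Of 37 other autophagy genes listed, 10 could be named and were measured. In total RNA, 2 rose and 1 fell at 2 h (median change 0.026), and 3 rose and 1 fell at 9 h (median 0.20). Of all probe sets 8.20% rose and 12.5% fell at 2 h, and 21.3% rose and 24.5% fell at 9 h, so the share of these genes that rose at 9 h lay near that of all probe sets. ATG101, a subunit of the kinase complex that starts autophagy, rose by 0.76 ± 0.21 at 2 h (adjusted p = 0.0107) and 1.45 ± 0.21 at 9 h (adjusted p = 2.81e-06), and changed by -0.68 ± 0.21 in recovery (adjusted p = 0.0215). ATG1A (AT3G61960), listed in the same kinase complex, went the other way. It changed by -0.96 ± 0.17 at 9 h (adjusted p = 4.94e-05) and 0.98 ± 0.17 in recovery (adjusted p = 0.000133). ATG14A (AT1G77890) rose by 1.18 ± 0.21 at 9 h (adjusted p = 3.35e-05), but a second probe set of that locus did not pass (0.20). ATG1C (AT2G37840), also of the ATG1 kinase complex list, had a second probe set, which was not the one counted. That second probe set rose by 0.45 at 2 h (adjusted p = 0.018) and 0.43 at 9 h (adjusted p = 0.011). The counted one, at 0.36 and 0.17, did not pass. SH3P2 (AT4G34660), listed with the ATG8-binding receptors and adaptors, rose by 0.45 ± 0.13 at 9 h (adjusted p = 0.0072). ATG16 (AT5G50230) rose from 2 h to 9 h of hypoxia by 0.54 ± 0.11 (adjusted p = 0.000369). It was higher in recovery than after 9 h of air by 0.49 ± 0.11 (adjusted p = 0.000698). Its effect at 9 h minus that at 2 h was 0.44 ± 0.16 (adjusted p = 0.0468).

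In polysomal RNA, on centred values, 2 of these 10 genes rose and 1 fell at 2 h (15.7% and 17.6% of all probe sets), and 3 rose and 1 fell at 9 h (22.6% and 25.3%). ATG101 rose by 1.11 ± 0.21 at 2 h (adjusted p = 0.000174) and by 2.09 ± 0.21 at 9 h (adjusted p = 6.76e-09), and from 9 h of hypoxia to recovery it changed by -1.60 ± 0.21 (adjusted p = 1.01e-06). ATG1A (AT3G61960) changed by -0.67 ± 0.17 at 9 h (adjusted p = 0.00191) and 0.58 ± 0.17 in recovery (adjusted p = 0.009). ATG4B (AT3G59950) was the gene that fell at 2 h, with -0.34 ± 0.10 (adjusted p = 0.0114). ATG13B (AT3G18770) rose by 0.51 ± 0.12 at 9 h (adjusted p = 0.000915) and SH3P2 (AT4G34660) by 0.33 ± 0.14 (adjusted p = 0.0455). A centred rise at 9 h below the drop in array mean becomes a fall on the deposited scale, as it does for the last pair.

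Of 6 genes of energy sensing listed, 2 could be named and were measured. RAPTOR1, a subunit of the TOR kinase complex that holds autophagy down, changed by -0.63 ± 0.14 in total RNA at 9 h (adjusted p = 0.000693). RAPTOR2 changed by -0.098 ± 0.13 (adjusted p = 0.59), and 24.5% of all probe sets fell. In centred polysomal RNA at 9 h neither gene passed. Of 8 carbon starvation genes listed, 3 had a probe set that could be named, all of leucine breakdown. These 3 rose at 9 h, where 21.3% of all probe sets did. The other listed genes could not be read here, and the list was chosen with earlier results of these data known. IVD, an enzyme of leucine breakdown, rose by 2.36 ± 0.17 (adjusted p = 1.17e-11). MCCA and MCCB, the subunits of methylcrotonyl-CoA carboxylase in the same route, rose by 2.18 ± 0.31 (adjusted p = 1.95e-06) and 0.78 ± 0.22 (adjusted p = 0.00455).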

How the data were processed

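PolyA RNA of the total and polysomal pools of each condition was hybridised to Affymetrix arrays, 1 for each of 3 independent replicate experiments. The deposited values are log2 signals, and the submitters' processing notes name RMA. Its version, the arrays it was run on jointly and the reason why the polysomal arrays lie lower are not stated there, and that reason was not tested. RMA equalises arrays that are processed jointly, so a change of most mRNAs at once would not be seen among them. In the centred polysomal values, subtraction of the array mean also removes such a change. Arrays give no counting depth, and their number limits the precision.

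The 64 control probe sets were left out, and limma (version 3.58.1, R 4.3.3) was fitted to the other 22746 on all 30 arrays, with 1 mean for each of 10 groups and 20 residual degrees of freedom. The fit was tested on simulated data in which the noise of each array was drawn independently. Deviations shared by same-numbered replicates were not part of it. Total RNA was used as deposited, and comparisons with polysomal RNA after subtraction of each array's mean. The members and gene lists were chosen with earlier results of these data known, and all 10 members are named; of other genes, some of those of the lists that passed, and the 5 with the most similar profile, are named. Replicate numbers were compared as pairs: in 12 of 15 pairs of groups all same-numbered arrays deviated together (r over 0.1), and the labels give no shared day, so the replicate block was kept as an alternative. Other alternatives were scaling, filtering, the groups fitted and leaving out libraries. Sequences and probe-level signals were not used here.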

Additional observations from a re-analysis of the deposited data

Results flagged for a closer look

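Effects that differed from each other by a direct test concerned 5 members. In total RNA the hypoxia effect at 9 h minus that at 2 h was 0.74 for APG8H, 0.69 for ATG8D and -0.59 for ATG8B. The polysomal change minus the total change on centred values was 0.61 for ATG3 and -0.71 for ATG8C at 2 h of hypoxia, and 0.85 and -0.88 at 9 h. From hypoxia to recovery it was -1.01 for ATG3 and 0.88 for ATG8C. The 9 h and recovery tests share the arrays of 9 h of hypoxia. Groups of 3 arrays are too small for a test of single arrays that stand apart.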

How the results depend on the processing

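The number of members that passed lay, when a library or a replicate of every group was left out, at 0 to 6 for total RNA at 2 h, 4 to 7 for total RNA at 9 h, 2 to 6 for 9 h against 2 h of hypoxia, 1 to 3 for the 9 h minus the 2 h effect, 0 to 5 for total RNA, recovery against hypoxia, 2 to 5 for total RNA, recovery against air, 3 to 6 for polysomal RNA at 2 h, 7 to 8 for polysomal RNA at 9 h, 5 to 8 for polysomal RNA, recovery against hypoxia, 2 to 5 for polysomal RNA, recovery against air, 0 to 2 for polysomal minus total change at 2 h, 1 to 3 for the same at 9 h, 2 to 3 for the same from hypoxia to recovery, 8 to 9 for polysomal minus total RNA in air at 2 h, 8 to 10 for the same at 9 h. It was 2 throughout for 9 h against 2 h of air and 0 throughout for the polysomal minus total change in recovery against air. With the level of the 18 hybridisation controls subtracted from each array, the number was 0 for total RNA at 2 h, 1 for total RNA at 9 h, 0 for 9 h against 2 h of hypoxia, 0 for 9 h against 2 h of air, 0 for the 9 h minus the 2 h effect, 0 for total RNA, recovery against hypoxia, 0 for total RNA, recovery against air, 1 for polysomal RNA at 2 h, 4 for polysomal RNA at 9 h, 2 for polysomal RNA, recovery against hypoxia, 0 for polysomal RNA, recovery against air, 0 for polysomal minus total change at 2 h, 0 for the same at 9 h, 0 for the same from hypoxia to recovery, 4 for polysomal minus total RNA in air at 2 h; the controls had a standard deviation of up to 0.467 between arrays of a group. With array medians subtracted, 8 members fell in total RNA from hypoxia to recovery. A fit of only the groups compared gave 3 for 9 h against 2 h of hypoxia and 3 for polysomal RNA in recovery against air. Deposited values gave 9, 8 and 7 for the polysomal minus total change at 2 h, at 9 h and from hypoxia to recovery.

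Deposited values, where the median of all probe sets moved by -1.02 to 0.854, turned 42 of 100 signs. Of these, 8 belonged to members that passed on neither scale. The other 34 passed on at least 1 scale and had these deposited values: at 2 h in polysomal RNA APG8A -0.61, ATG8B -0.63, ATG8D -0.61, ATG8E -0.11, ATG8F -0.43, ATG8G -0.47; at 9 h APG8A -0.84, ATG8E -0.28, ATG8F -0.33, ATG8G -0.67, APG8H -0.29; from hypoxia to recovery APG8A 0.66, ATG8B 0.73, ATG8D 0.31, ATG8F 0.45, ATG8G 0.42, ATG8H 0.11, APG8H 0.66; for the polysomal minus total change at 2 h APG8A -0.73, ATG8E -0.74, ATG8G -0.66, ATG8H -0.78, ATG3 -0.20; at 9 h APG8A -0.84, ATG8D -0.90, ATG8E -0.68, ATG8F -0.99, ATG8G -0.80, ATG3 -0.16; from hypoxia to recovery APG8A 0.78, ATG8D 0.59, ATG8F 0.74, ATG8G 0.50; and in air at 9 h ATG3 -0.037. The cause was not tested. With the replicate block APG8A passed in 9 h against 2 h of air (adjusted p = 0.0311), as it did in 4 of 7 alternatives that kept all libraries, and ATG8H in polysomal RNA at 2 h (adjusted p = 0.0457), and it changed no other member's call. The alternative with another probe set was not run, since each member has 1. With 3 arrays a group, small changes could not be detected.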
